A study of Homo sapiens with 6 samples.

Results

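The aminoacyl-tRNA synthetases examined here were 36 genes of the 26255 in the expression tables, matched by gene symbol. Of these, 20 encode cytosolic enzymes and 16 encode mitochondrial enzymes, whose symbols end in 2. All 36 passed the filter on low values (a mean of at least 1 FPKM, which 12729 genes passed). FPKM is the number of sequenced fragments scaled by transcript length and by library size. RNA-seq compared 3 samples of 22RV1, an established human castration-resistant prostate cancer (CRPC) cell line, treated with 10 nM bruceantin (BCT, a quassinoid natural product) with 3 samples given DMSO, the solvent control. All samples were kept for 24 h in full medium, and both groups were the same cell line. The labels do not say whether the samples of a group came from separate cultures, so the p-values measure only the spread between these samples.

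Each synthetase joins 1 amino acid to its matching tRNA, and the charged tRNA then delivers that amino acid to the ribosome. Cytosolic enzymes serve the ribosomes that read nuclear mRNAs, whereas a separate nuclear-encoded set is imported into mitochondria to serve the ribosomes that read mitochondrial DNA. The enzymes fall into class I and class II by the fold of the active site, and several cytosolic ones assemble with scaffold proteins into the multi-tRNA synthetase complex. GARS and KARS, for glycine and lysine, also supply the mitochondrial form from the same gene, and glutaminyl-tRNA is made in mitochondria by converting glutamyl-tRNA. Uncharged tRNAs and other stresses activate ATF4, a transcription factor that binds C/EBP-ATF response elements and is known to act on many cytosolic synthetase genes.

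Because this element is the known link between ATF4 and the synthetase genes, its core (TGATGNAA, or TTNCATCA on the other strand) was searched on both strands in the RefSeq promoter windows, which run from 250 bases before to 50 bases after each gene start on GRCh38.p14. Windows were matched by symbol for 30 of the 36 genes. DARS, LARS, VARS, YARS, AARS2 and VARS2 had no matched window. The core was present for 7 of 16 cytosolic genes (43.75%) and 1 of 14 mitochondrial genes (7.14%), while 4.46% of all 27305 symbols with a window and 2.49% of the 9455 tested genes with a window held it. These shares describe letters, not binding. The 30-base stretches that hold the core are printed 5′ to 3′ on the strand of the gene, with the core in capitals, so that the cytosolic genes and the single mitochondrial one can be compared.
CARS, chr11:3057407-3057436, minus strand: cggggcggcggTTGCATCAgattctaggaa
TARS, chr5:33440956-33440985, plus strand: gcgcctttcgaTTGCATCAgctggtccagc
MARS, chr12:57488053-57488082, plus strand: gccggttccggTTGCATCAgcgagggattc
NARS, chr18:57621804-57621833, minus strand: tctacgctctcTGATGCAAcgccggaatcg
AARS, chr16:70289675-70289704, minus strand: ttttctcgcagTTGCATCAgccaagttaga
GARS, chr7:30594834-30594863, plus strand: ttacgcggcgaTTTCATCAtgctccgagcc
IARS, chr9:92293692-92293721, minus strand: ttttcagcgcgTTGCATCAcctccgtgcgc
YARS2, chr12:32756076-32756105, minus strand: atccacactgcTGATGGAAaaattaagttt

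Counted from 1 at the gene start, with bases before it negative, the core began at -2 in CARS, 3 in TARS, -4 in MARS and -13 in IARS. The cores of AARS and YARS2 lay farther out, at -187 and -197. An E-box (CACGTG, which reads the same on both strands) was present for 1 of 16 cytosolic genes (6.25%; IARS) and 3 of 14 mitochondrial genes (21.4%; CARS2, EARS2 and MARS2), against 8.78% of all symbols and 12.8% of tested genes. Part of the NRF1 motif (GCATGCGC, or GCGCATGC on the other strand) was present for 0 cytosolic and 2 mitochondrial genes (14.3%; MARS2 and YARS2), against 3.68% of all symbols and 6.64% of tested genes. Of the genes with an E-box, EARS2 had a log2 fold change of -1.15, CARS2 -0.74, IARS -0.68 and MARS2 -0.04. A link between the motif and these changes was not tested. The E-box stretch of EARS2, chosen because its fold change was the largest, is printed with the motif in capitals.
EARS2, chr16:23557347-23557376, minus strand: agggagaagccCACGTGtgctattccatcc

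As deposited, the FPKM values summed to 1169649 to 1572321 per DMSO sample and 757534 to 799838 per BCT sample, and a single small RNA gene, MIR6087, took 43.5% to 55.3% of the sum with DMSO and 31.7% to 32.5% with BCT. The files hold no read counts, so the depth behind each gene is unknown. The luminal prostate genes KLK3 (8.03 to 9.76 FPKM with DMSO, 0.863 to 1.32 with BCT), KRT8 (262 to 280 and 553 to 680) and KRT18 (333 to 341 and 1065 to 1148) were detected in all 6 samples. Of 5 markers of other cells, PTPRC, PECAM1, KRT5 and TP63 stayed at or below 0.237 FPKM. COL1A1, a fibroblast collagen gene, was at 1.23 to 1.55 FPKM with DMSO and 5.04 to 6.31 with BCT, and its part in the results was not tested. In 23 of the 34 synthetase genes whose groups did not overlap, and in 73.6% of all such genes, BCT replicate 1 was the BCT sample nearest to the DMSO mean.

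The question was whether 24 h of BCT changed the RNA of the charging enzymes, and whether cytosolic and mitochondrial enzymes moved alike. Most cytosolic synthetase RNAs were higher with BCT: 16 of 20 rose at a false discovery rate (FDR) below 0.05 and 4 fell, namely QARS, IARS, DARS and VARS. The mitochondrial set was mixed, with 8 of 16 falling, 4 rising (FARS2, RARS2, SARS2 and YARS2) and 4 not passing the test (HARS2, MARS2, VARS2 and WARS2). The share of cytosolic genes that rose, 80%, stood beside 39.3% of all tested genes that rose at the same FDR, and the share of mitochondrial genes that fell, 50%, stood beside 42.8% of all tested genes that fell. The median log2 fold change (log2(FPKM + 0.1), BCT minus DMSO) was 0.29 for cytosolic genes and -0.14 for mitochondrial genes, against -0.04 for all tested genes.

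Most of these changes were small. Genes were called only where the absolute log2 fold change passed 0.85 as well as the FDR of 0.05. By that rule 5 of the 36 genes were called: CARS and TARS were higher, and QARS, IARS2 and EARS2 were lower. Over all tested genes, 13.9% were called higher and 17.8% were called lower, so the called share of the synthetases was not above the background in either direction. Of the cytosolic genes all 20 had groups that did not overlap (16 with BCT above, 4 with BCT below), and of the mitochondrial genes 4 had BCT above, 10 had BCT below and 2 overlapped (HARS2 and MARS2). Among all tested genes, BCT lay wholly above DMSO in 41% and wholly below it in 44.3%.

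**Figure D1:**
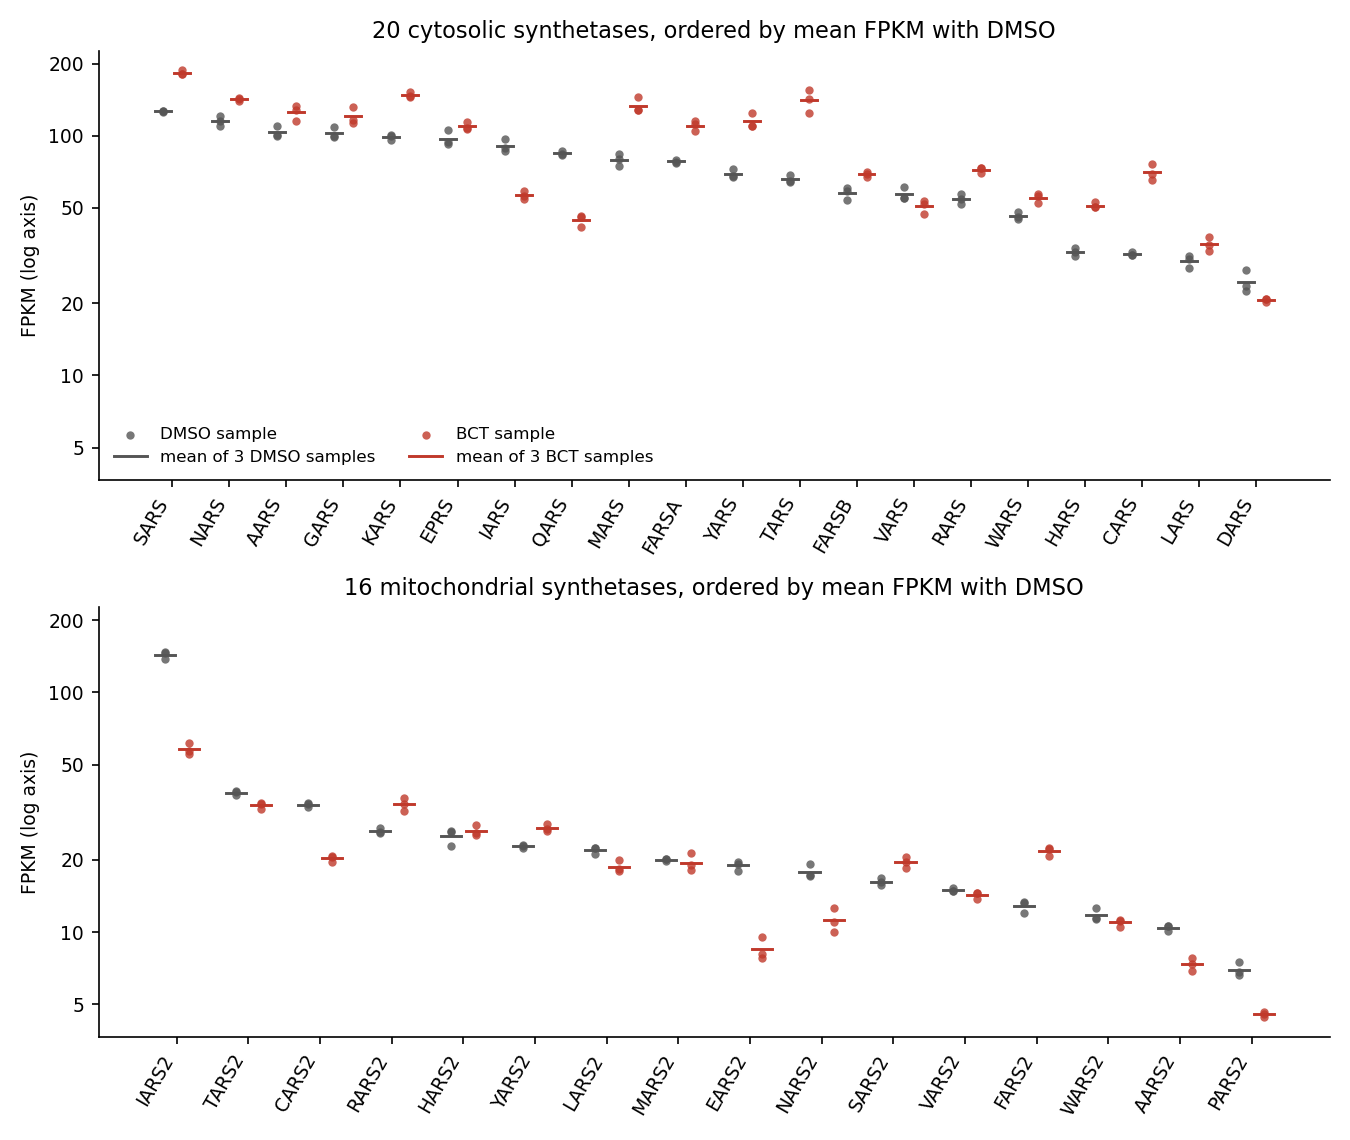
FPKM on a log axis of each of the 20 cytosolic (top) and 16 mitochondrial (bottom) synthetase genes, with 1 point per sample (grey, 3 DMSO; red, 3 BCT) and a line at each mean of 3. The BCT points of CARS, TARS, MARS and YARS lie above their DMSO points, and those of QARS, IARS, IARS2 and EARS2 lie below.

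With DMSO, cytosolic genes had mean levels of 24.5 FPKM (DARS) to 126.6 FPKM (SARS), with a median over genes of 73.7 FPKM. The mitochondrial genes were lower, at 6.95 FPKM (PARS2) to 38.1 FPKM (TARS2) apart from IARS2, and their median was 19.5 FPKM. IARS2, the mitochondrial isoleucyl-tRNA synthetase, was the exception, and at 143.8 FPKM it was the highest of all 36 genes with DMSO. With BCT it ranked 14 of 36, and SARS, the seryl enzyme of the cytosol, ranked 1 at 182.9 ± 4.09 FPKM (SD, n = 3). KARS (148 ± 3.43 FPKM), NARS (142.4 ± 2.20 FPKM) and TARS (140.8 ± 15.9 FPKM) came next. The TARS samples spread over the range of both others, while every KARS sample lay above every NARS sample.

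CARS, the cysteinyl-tRNA synthetase of the cytosol (GRCh37 chromosome 11, 3022152 to 3078843, minus strand), had the largest rise. Its level was 31.9, 32.8 and 31.7 FPKM in the 3 DMSO samples and 65.4, 76.6 and 69.0 FPKM in the 3 BCT samples. The groups did not overlap, and the lowest BCT sample stood far above the highest DMSO sample. The rise was 2.19-fold, with a log2 fold change of 1.12 ± 0.064 (SE; adjusted p = 1.5e-06). Of all tested genes, 91.4% had a lower log2 fold change.

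TARS, the threonyl-tRNA synthetase of the cytosol (chromosome 5, 33440802 to 33468196, plus strand), was measured at 64.9, 68.9 and 64.3 FPKM with DMSO, while the BCT samples had 124.1, 155.7 and 142.6 FPKM. Its BCT samples spread more than those of CARS but lay wholly above the DMSO samples. The level rose 2.13-fold, with a log2 fold change of 1.09 ± 0.082 (SE; adjusted p = 5.1e-06). Tested against the threshold of 0.85 itself with limma's treat, the TARS call was lost, whereas that of CARS held.

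The other cytosolic genes that rose did so by 0.17 to 0.75 on the log2 scale. MARS, the methionyl enzyme that also charges the initiator tRNA, went from 75.0, 83.8 and 79.8 FPKM with DMSO to 127.5, 145.4 and 127.9 FPKM with BCT (log2 fold change 0.75). In the GENCODE annotation 12.4% of the exon bases of MARS also belong to genes on the opposite strand, and the library kit did not mark strand. ARHGAP9 shares 519 bases and was at 0.149 to 0.223 FPKM over the 6 samples, whereas DDIT3 shares 355 bases (5.05%) and had a log2 fold change of 1.92. Fragments from these overlaps cannot be told apart, and their part in the value of MARS was not tested. YARS, the tyrosyl enzyme, had a log2 fold change of 0.73, followed by HARS for histidine at 0.64, KARS at 0.58 and SARS at 0.53. HARS and HARS2 carry the same merged interval in the deposited tables, and how fragments in their overlap were assigned is not given in the sources used here. In GENCODE, 8.46% of the exon bases of HARS and 10.6% of those of WARS also belong to other genes. For HARS, 1090 of these bases (7.70%) are shared with another protein-coding gene on the opposite strand. Their part in the values of HARS and WARS was not tested.

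FARSA and FARSB encode the alpha and beta subunits of the phenylalanyl enzyme, and both rose, by 0.49 and 0.26 on the log2 scale. RARS (arginine) rose by 0.40, NARS (asparagine) by 0.30, AARS (alanine) by 0.28, WARS (tryptophan) by 0.26, and GARS and LARS (leucine) by 0.23 each. EPRS, a single protein that charges both glutamate and proline, moved least among those that rose: it was at 94.6, 105.6 and 92.1 FPKM with DMSO and 106.5, 113.9 and 108.0 FPKM with BCT (log2 fold change 0.17). Its groups were separated by less than 1 FPKM.

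QARS, the glutaminyl-tRNA synthetase (chromosome 3, 49133365 to 49142563, minus strand), was the only cytosolic gene called lower. The DMSO samples had 86.7, 83.1 and 83.6 FPKM, whereas the BCT samples had 46.5, 45.9 and 41.7 FPKM. The groups were well separated, with a log2 fold change of -0.92 ± 0.056 (SE; adjusted p = 2.0e-06), a level 1.89-fold lower with BCT. This value lay close to the threshold of 0.85, and the call was lost with treat, with quantile normalization (log2 fold change -0.79) and after rescaling to equal FPKM sums with MIR6087 (-0.15) or without it (-0.53).

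IARS, the isoleucyl enzyme of the cytosol, fell without passing the threshold. It went from 86.5, 96.9 and 89.0 FPKM to 59.0, 56.1 and 54.5 FPKM (log2 fold change -0.68), and its promoter window held the same response element core as those of CARS and TARS. DARS, for aspartate, fell by 0.24. VARS, for valine, was the cytosolic gene nearest to 0, at 54.9, 61.1 and 55.2 FPKM with DMSO and 53.3, 51.7 and 47.4 FPKM with BCT (log2 fold change -0.17 ± 0.065, SE; adjusted p = 0.042). In VARS the lowest DMSO sample was within 2 FPKM of the highest BCT sample.

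Of the 8 cytosolic enzymes of the multi-tRNA synthetase complex (DARS, EPRS, IARS, KARS, LARS, MARS, QARS and RARS), 5 rose and 3 fell, with a median log2 fold change of 0.20. Of the 12 free cytosolic genes, 11 rose and VARS fell, with a median of 0.40. The 3 scaffold genes of the complex lay between 0.10 and 0.49: AIMP2 (0.49) and AIMP1 (0.23) rose, and EEF1E1 (0.10; adjusted p = 0.099) did not pass the test. By class, 6 of 9 cytosolic class I genes rose (median 0.26) and 9 of 10 class II genes rose (median 0.40), with EPRS counted in neither because it joins both classes in a single chain. No difference between these groups was tested, and over all tested genes 39.3% rose and 42.8% fell at the same FDR.

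**Figure D2:**
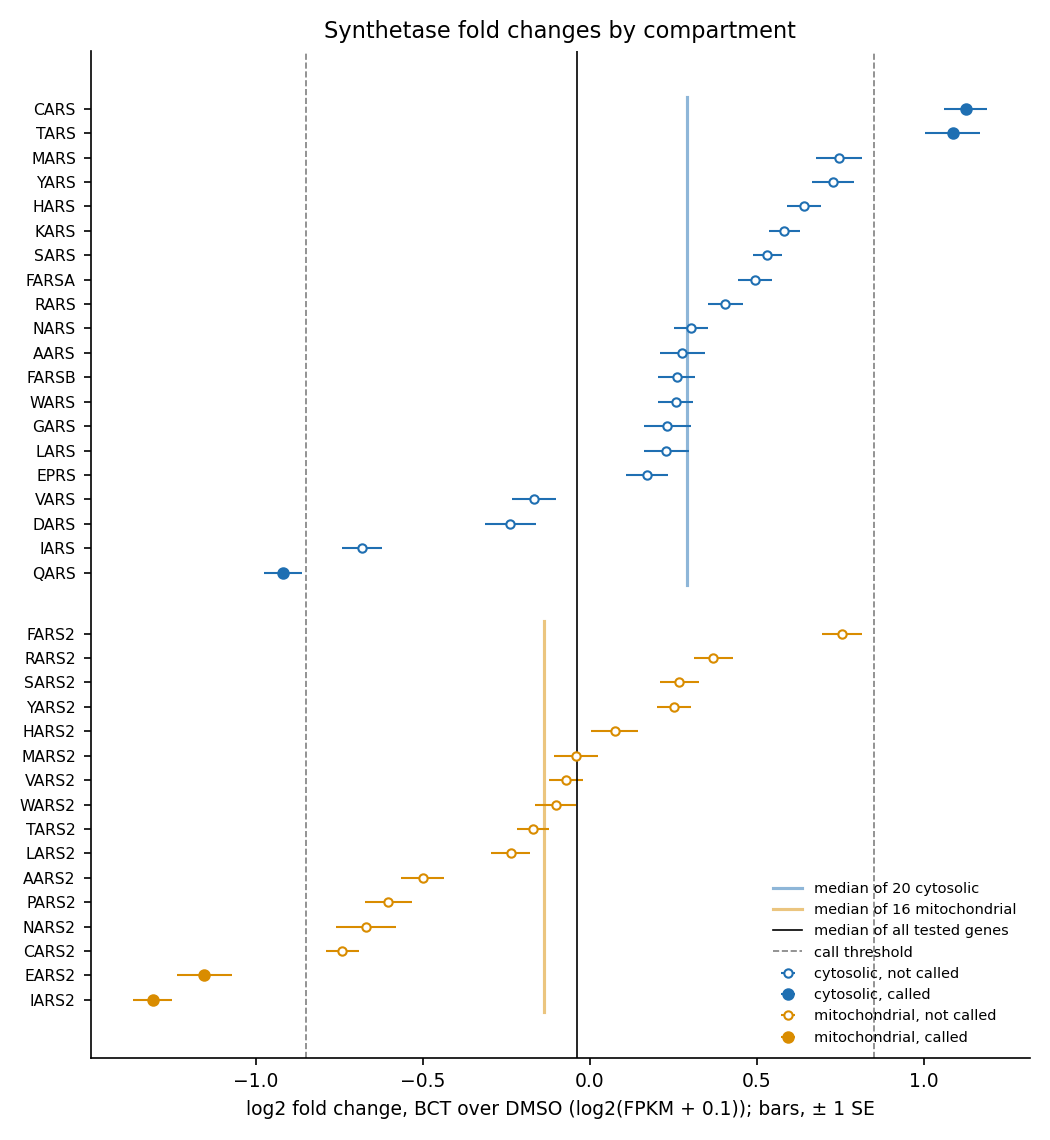
Log2 fold change of each synthetase gene (BCT over DMSO, on log2(FPKM + 0.1)), with bars of 1 SE, cytosolic above and mitochondrial below. Filled points are the 5 called genes, dashed lines mark the threshold of 0.85 in each direction, and the vertical lines mark the medians of the cytosolic genes (0.29), the mitochondrial genes (-0.14) and all tested genes (-0.04).

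IARS2 (chromosome 1, 220267474 to 220321383, plus strand) had the largest fall among the 36 genes. Its level was 148.1, 145.9 and 137.3 FPKM in the DMSO samples but 61.7, 55.2 and 57.1 FPKM in the BCT samples. No BCT sample came near the DMSO samples, and the level was 2.48-fold lower with BCT, with a log2 fold change of -1.31 ± 0.058 (SE; adjusted p = 6.7e-07). Of all tested genes, 8.43% had a lower log2 fold change. In the deposited tables IARS2 and EPRS carry the same merged interval, but in the GENCODE annotation neither shares an exon base with another gene.

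EARS2, the mitochondrial glutamyl-tRNA synthetase (chromosome 16, 23532075 to 23569052, minus strand), whose product is also the starting point for mitochondrial glutaminyl-tRNA, was the other mitochondrial gene called lower. Its level was 19.2, 19.7 and 18.1 FPKM with DMSO and 9.58, 8.14 and 7.82 FPKM with BCT. The groups did not overlap, and the level was 2.23-fold lower with BCT (log2 fold change -1.15 ± 0.083, SE; adjusted p = 3.9e-06). The call was lost after rescaling to equal FPKM sums with MIR6087 (-0.39) or without it (-0.77).

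CARS2, the mitochondrial cysteinyl enzyme, fell by 0.74 on the log2 scale, from 34.5, 34.3 and 33.3 FPKM to 20.8, 19.6 and 20.6 FPKM, so it moved opposite to CARS. NARS2 fell by 0.67, PARS2 by 0.60, AARS2 by 0.50, LARS2 by 0.24 and TARS2 by 0.17. The mitochondrial gene with the largest rise was FARS2, the single-chain mitochondrial phenylalanyl enzyme, at 13.3, 12.1 and 13.3 FPKM with DMSO and 20.9, 22.2 and 22.4 FPKM with BCT (log2 fold change 0.75). RARS2 rose by 0.37, SARS2 by 0.27 and YARS2 by 0.25.

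MARS2, the mitochondrial methionyl enzyme, was nearest to 0: it was at 20.1, 19.7 and 20.2 FPKM with DMSO and 21.3, 18.2 and 19.0 FPKM with BCT (log2 fold change -0.04 ± 0.066, SE; adjusted p = 0.58), and the BCT samples lay on both sides of the DMSO samples. HARS2 (0.07), VARS2 (-0.07) and WARS2 (-0.10) did not pass the test either. Some of these levels carry a limit of annotation, since 48.2% of the exon bases of SARS2, 63.0% of those of VARS2 and 18.1% of those of YARS2 also belong to another GENCODE gene. VARS and VARS2 were listed on alternative haplotypes of chromosome 6. Of the 630 pairs of the 36 genes, only HARS and HARS2 shared a stretch of 100 bases, the read length, in the transcripts of that annotation, on opposite strands. Their exons overlap by 108 bases, 0.763% of the exon bases of HARS and 2.90% of those of HARS2.

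Summed over the enzymes of a compartment, the cytosolic level was 1436, 1497 and 1409 FPKM with DMSO and 1813, 1942 and 1808 FPKM with BCT, a ratio of 1.28. The mitochondrial sum went the other way, from 453.1, 444.7 and 429.9 FPKM to 341.8, 336.8 and 331.1 FPKM, a ratio of 0.760. This direction holds for the values as deposited: after rescaling to equal FPKM sums the mitochondrial ratio was 1.29, and without MIR6087 it was 0.994, while the cytosolic ratio was 2.16 and 1.67. IARS2 alone made up 32.5% of the mitochondrial sum with DMSO and 17.2% with BCT. Without IARS2, a sum taken after the values were seen, the mitochondrial sum was 305.1, 298.8 and 292.6 FPKM with DMSO and 280.0, 281.6 and 273.9 FPKM with BCT, a ratio of 0.932. In the sums of the values as deposited, with and without IARS2, the BCT and DMSO samples were separate. Separation was common among single genes, with BCT wholly above DMSO in 41% of tested genes and wholly below in 44.3%. Cytosolic over mitochondrial sum was 3.17 to 3.37 with DMSO and 5.30 to 5.77 with BCT.

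A ratio of cytosolic to mitochondrial enzyme taken within each sample is free of the scaling between libraries. There were 17 such pairs, with EPRS set against both EARS2 and PARS2 and FARS2 against both subunits. The log2 ratio was higher with BCT in 13 pairs and lower in 2 with no overlap between the groups, and it overlapped in 2 (RARS with RARS2 and VARS with VARS2). For any 2 tested genes the ratio separated the groups in 84.3% of cases, so the 15 of 17 pairs that separated were near the background, and the direction and size of the shifts are what the pairs describe. The median shift was 0.57 on the log2 scale. In the values as deposited, the cytosolic enzyme had a positive log2 fold change and the mitochondrial one a negative one in 9 pairs. These 9 include the pairs of MARS2 and WARS2, which did not pass the test. Unlike the ratios, such signs depend on the scaling between libraries. After rescaling to equal FPKM sums, EARS2 (-0.39) was the only mitochondrial gene of the 9 pairs to stay negative. The isoleucine pair then had opposite signs (IARS 0.09, IARS2 -0.54).

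The cysteine pair shifted most. CARS and CARS2 were at nearly the same level with DMSO, with a ratio of the mean FPKM of 0.944, whereas with BCT CARS was 3.46 times CARS2, a shift of 1.87 on the log2 scale. The ratio of EPRS to EARS2 went from 5.13 to 12.9 (shift 1.32) and that of TARS to TARS2 from 1.73 to 4.16 (shift 1.26). Both isoleucine enzymes fell, but IARS2 fell more, so that the ratio of IARS to IARS2 moved from 0.631 to 0.974 (shift 0.63). The phenylalanine pairs moved the other way, with shifts of -0.26 for FARSA and -0.49 for FARSB against FARS2.

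Other genes that charge tRNA or correct charging also moved in both directions. Of 6 such genes outside the 36 that are described here, 1 was called lower and 2 higher. Over all tested genes, 17.8% were called lower and 13.9% higher. DTD2, which clears mischarged tRNA, was the gene called lower (-1.19). Its level was 8.51, 8.07 and 7.83 FPKM with DMSO and 3.997, 3.27 and 3.28 FPKM with BCT. PSTK, which modifies serine on the selenocysteine tRNA, was higher (2.01) from a low level of 0.866 to 1.14 FPKM with DMSO, and AARSD1, which clears mischarged alanine tRNA, was higher by 1.28.

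Of the 4 genes that complete mitochondrial glutaminyl-tRNA and initiator methionyl-tRNA, QRSL1, the catalytic subunit of the amidotransferase, was called higher, at 9.68, 9.39 and 9.60 FPKM with DMSO and 17.1, 17.8 and 17.7 FPKM with BCT (log2 fold change 0.87). GATC rose by 0.29, while GATB fell by 0.33 and MTFMT fell by 0.51. EARS2, which makes the glutamyl-tRNA that this amidotransferase uses, and QRSL1 moved in opposite directions. Of 13 genes of tRNA maturation and export, 1 was called lower and 1 higher, and the list's median was -0.06. These were TSEN34, a subunit of the tRNA splicing endonuclease (-1.25), and ELAC1, a ribonuclease Z (1.51). Over all tested genes, 17.8% were called lower and 13.9% higher, so the called share of this list was not above the background.

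The 19 genes of the amino acid response, the pathway of ATF4, had a median of 0.70 on the log2 scale. By limma, 8 of them were called higher and 0 lower, against 13.9% and 17.8% of all tested genes. At the FDR alone 13 rose and 5 fell, against 39.3% and 42.8%. Those that fell were SLC7A5 (-0.83), a carrier of large neutral amino acids, PHGDH (-0.80) and PSAT1 (-0.79) of serine synthesis, DDIT4 (-0.52) and TRIB3 (-0.16). The groups of DDIT4 overlapped, at 36.7 to 55.9 FPKM with DMSO and 28.3 to 38.4 FPKM with BCT. The 3 largest changes were in PPP1R15A (3.46), which directs the phosphatase that reverses eIF2 phosphorylation, ATF3 (3.13), a stress-induced transcription factor, and CHAC1 (2.53), which breaks down glutathione. Of the 7 cytosolic synthetase genes with the response element core in the promoter window, 6 rose, by 0.23 (GARS) to 1.12 (CARS), and IARS fell. Of the 9 cytosolic genes whose window held no core, 8 rose and QARS fell. The median log2 fold change was 0.30 with the core and 0.40 without it.

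**Figure D3:**
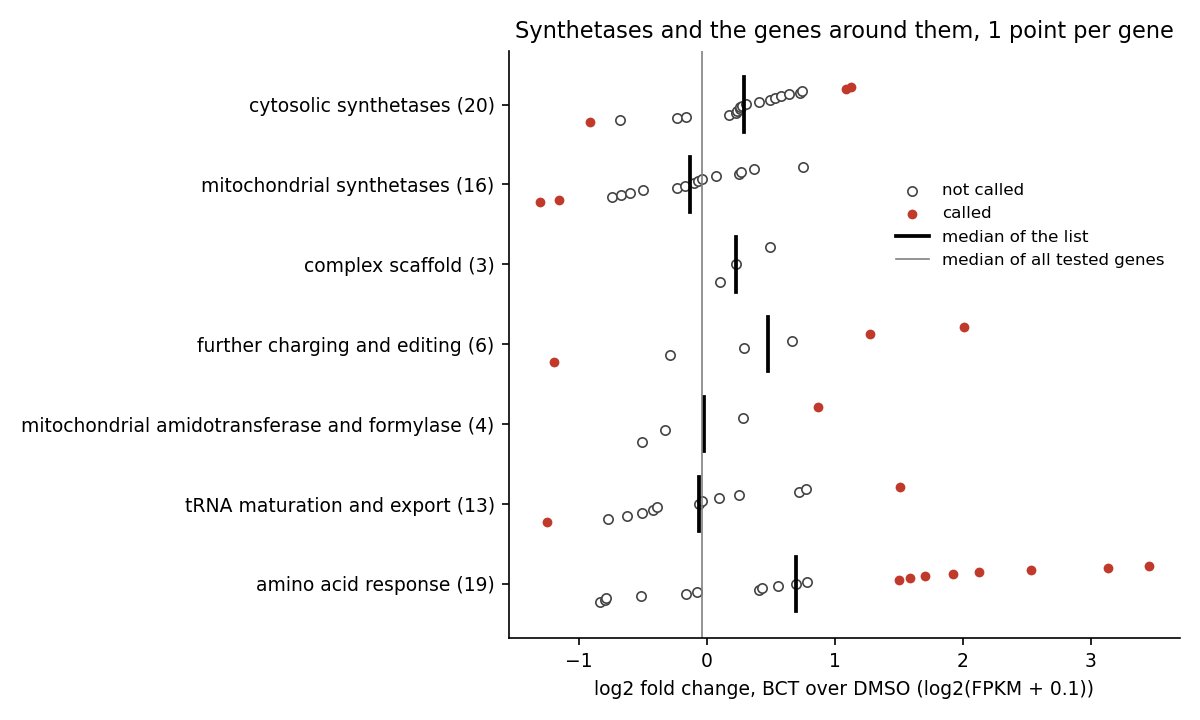
Log2 fold change (BCT over DMSO, on log2(FPKM + 0.1)) of the synthetases and of 5 lists of related genes, with 1 point per gene, filled where called, and a bar at each list's median. The amino acid response list has the highest median (0.70) and reaches 3.46, and the list of further charging and editing genes spans -1.19 to 2.01.

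The direction of a single gene relative to 0 depends on how the libraries are scaled, since the FPKM sum was lower in the BCT samples and MIR6087 held much of it. As deposited, 56.2% of all calls were lower, against 26.4% after rescaling to equal sums without MIR6087 and 10.6% after rescaling to equal sums. The median of all tested genes moved from -0.04 to 0.34 and 0.72 in these scalings, that of the cytosolic genes to 0.68 and 1.06, and that of the mitochondrial genes to 0.25 and 0.63. The cytosolic median therefore stood 0.33, 0.33 and 0.34 above the median of all genes. The mitochondrial median stood at -0.10, -0.10 and -0.09 relative to that of all genes. These distances could hardly change, because both rescalings multiply each library by a constant and so shift all genes nearly alike. Quantile normalization, which can change the distances, gave 0.51 and -0.14. Under equal sums QARS (-0.15), EARS2 (-0.39) and IARS2 (-0.54) were no longer called lower, and IARS (0.09) and CARS2 (0.02) changed sign. FPKM gives shares of a library, so less RNA per cell and a lower share of these RNAs cannot be told apart.

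**Figure D4:**
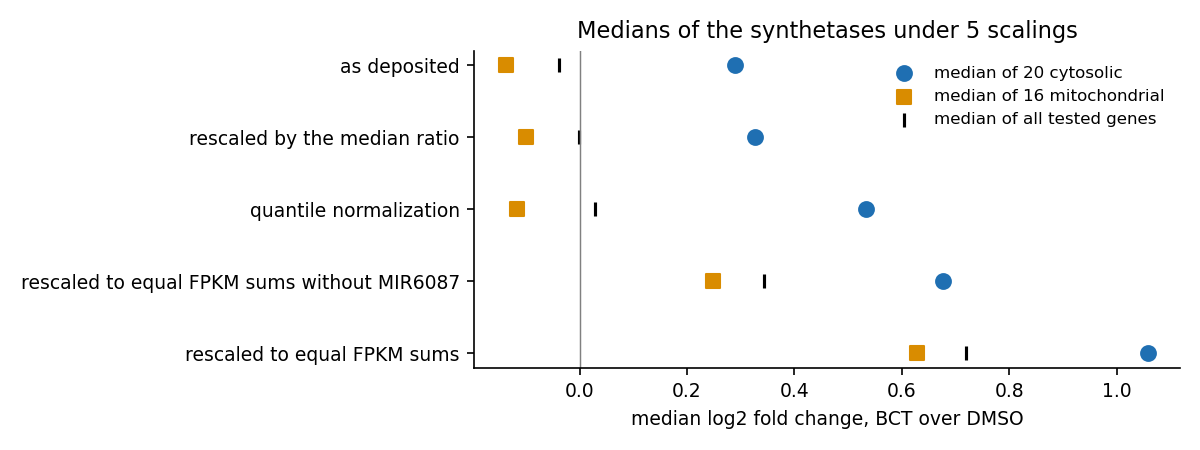
Median log2 fold change of the 20 cytosolic (circles) and 16 mitochondrial (squares) synthetase genes and of all tested genes (bars) under 5 scalings of the libraries. In each scaling the cytosolic median lies above the median of all tested genes and the mitochondrial median lies below it. Apart from quantile normalization, the scalings multiply each library by a constant, so the distances between the medians could hardly change.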

How the data were processed

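RNA was extracted from 3 BCT and 3 DMSO samples of 22RV1 cells, and libraries were made with a kit that does not mark strand. Reads were trimmed by the authors with Trimmomatic (0.38, per the labels) and aligned with HISAT2 to hg19/GRCh37. The methods of the paper name StringTie for the FPKM values, whereas the labels name HTSeq and do not name StringTie. The tool behind the deposited values is therefore not certain. The gene annotation is not given in the sources used here. The deposited FPKM values were used without rescaling. Genes whose mean reached 1 FPKM were tested on log2(FPKM + 0.1) with limma 3.58.1 (eBayes with a mean-variance trend) in R 4.3.3, with Benjamini-Hochberg adjustment over 12729 genes, which gives every adjusted p here. Fold changes on this scale understate those of low genes. The steps were tested on simulated data. An exact test of 3 against 3 samples cannot pass the threshold and was not used.

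The 36 genes, the related lists and the motifs were chosen with earlier results of these data known. The genes named with full statistics are the called members and, in each compartment, the member nearest to 0, and from related lists at most 3 called genes in each direction. AIMP1, AIMP2, EEF1E1, GATB, GATC, MTFMT, DDIT3, ARHGAP9, SLC7A5, PHGDH, PSAT1, DDIT4 and TRIB3 were named outside this rule, after their values were seen. Promoter windows are from RefSeq, and gene positions and exon overlaps are from a GENCODE release lifted to GRCh37. Alternatives covered the pseudocount, the filter, 4 scalings, a stricter FDR, how variances were moderated, each sample left out, the replicate block, and treat, which tests each fold change against 0.85 rather than 0. Some genes of the related and marker lists are not reported here.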

Additional observations from a re-analysis of the deposited data

How the results depend on the processing

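Leaving out each sample in turn kept all 5 calls (CARS and TARS higher, QARS, IARS2 and EARS2 lower), and the mitochondrial median then ranged from -0.157 to -0.121. Of 684 values of single synthetase genes under 19 alternatives, 629 changed neither sign nor call, 27 gained a call, 8 lost one and 20 changed sign. Rescaling to equal FPKM sums gave 0 synthetases called lower and 20 higher, medians of 1.06 (cytosolic) and 0.63 (mitochondrial), 668 genes called lower and 5614 higher over all genes, against 2263 and 1764 as reported, and summed FPKM ratios of 2.16 and 1.29. The signs that changed gave DARS 0.53, IARS 0.086, VARS 0.60, AARS2 0.26, CARS2 0.025, LARS2 0.53, MARS2 0.72, NARS2 0.094, PARS2 0.15, TARS2 0.60, VARS2 0.69 and WARS2 0.66. Rescaling to equal sums without MIR6087 gave 1 called lower (IARS2) and 9 higher, medians of 0.68 and 0.25, 1208 and 3370 genes over all genes, ratios of 1.67 and 0.994, and changed signs for DARS 0.15, VARS 0.22, LARS2 0.15, MARS2 0.34, TARS2 0.22, VARS2 0.31 and WARS2 0.28. These scalings raise every gene in the BCT samples by construction.

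The median-ratio scaling gave a mitochondrial median of -0.099 and a mitochondrial sum ratio of 0.781. Quantile normalization called 4 synthetases higher, with medians of 0.53 and -0.12. Treat called 1 synthetase higher, and 1392 genes lower and 1033 higher over all genes, since it tests a stricter hypothesis. A pseudocount of 1 gave a mitochondrial median of -0.131. Over all genes, 2657 were called higher with no filter and 1150 with a minimum of 5 FPKM, as more or fewer genes were tested. MARS2 ranged from -0.107 to 0.0077 with each sample left out and changed sign without BCT replicate 2. The cause was not tested.

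With the replicate number as a replicate block, 3 synthetases were called lower and 2 higher, and 2266 and 1767 genes over all genes. Same-numbered samples deviated together with correlations of 0.116, 0.0328 and 0.0342, not all over 0.1, so the numbers were not taken to pair the samples. FPKM holds no counts, so the precision that depth allows for single genes, such as PARS2 at 6.95 FPKM, is unknown.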
